A study of Mus musculus with 6 samples.

Results

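The 10 genes described here encode secretory products of the exocrine pancreas, and they are 10 of the 37991 genes that the count tables of this liver study name. They were chosen by their symbols, each matched to 1 Ensembl identifier, because counts for them had been seen in some tumour and liver libraries of these same data. Their counts are therefore given as a description, with no test. The question put to them is whether they rise in 1 fixed proportion from library to library, as they would if RNA of 1 source were present in different amounts. Of the 10, 9 encode digestive enzymes, and Reg1 encodes a secreted lectin-like protein, so the label of enzyme genes holds for all but that member.

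The libraries are bulk RNA sequencing of liver tumour and liver from mice that ate a high-fat diet during 27 weeks and were 35 weeks old when the tissue was taken. The 2 tumours came from mice labelled TgAlbCreKap1lox, in which Cre made from the albumin promoter deletes Kap1 (gene symbol Trim28) in hepatocytes. The labels do not say whether other liver cells keep the gene. The 2 KAP1-deleted livers came from the same 2 mice. The titles show that tumour 1 and KAP1-deleted liver 1 come from 1 mouse, as do tumour 2 and KAP1-deleted liver 2. The 2 control livers came from 2 other mice, labelled TgAlbCre, which carry the same Cre transgene, so that no group lacks Cre. Genes held 55316370 counts in tumour 1 and 43173982 in tumour 2, then 50977644 in the first and 53744834 in the second KAP1-deleted liver, against 39723997 and 62178752 in the control livers. Trim28 stood at 5.22 and 4.59 CPM (counts scaled to library size) in the tumours and at 5.06 and 6.02 CPM in the KAP1-deleted livers, against 32.5 and 35.9 CPM in control livers. All 5 hepatocyte markers matched by symbol were counted in every library, with Alb at 18150 CPM or more. Library sizes carried TMM factors throughout, and a bulk level cannot separate more cells of a type from more RNA per cell.

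Acinar cells of the exocrine pancreas make digestive enzymes in bulk, most of them as inactive precursors, and release them through ducts into the gut. They do so under a transcription factor complex, PTF1, that binds an E-box and a nearby TTTCCCA box in front of many of these genes. The liver arises beside the pancreas in the embryo, and hepatocytes of the adult are not known for these enzymes. The members cover lipid digestion (Pnlip, Pnliprp1), elastase-type proteases (Cela1, Cela2a, Cela3b), carboxypeptidases (Cpa1, Cpb1), chymotrypsin and trypsin precursors (Ctrb1, Prss2) and Reg1.

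The promoters of 3 members are shown because these genes stand for the 3 patterns found below: Ctrb1 for genes high in a single liver library, Pnliprp1 for high counts in both tumours, and Cela1 for counts in every library. Each sequence runs 5′ to 3′ from 250 bases before to 50 after the start of the gene and comes from RefSeq (GRCm38.p6), where all 10 members were matched. Capitals mark the E-box CACCTG, the box TTTCCCA, both searched on both strands, and TATAAA, searched on the gene's strand.
Ctrb1 (chr8:111690961-111691260, minus strand): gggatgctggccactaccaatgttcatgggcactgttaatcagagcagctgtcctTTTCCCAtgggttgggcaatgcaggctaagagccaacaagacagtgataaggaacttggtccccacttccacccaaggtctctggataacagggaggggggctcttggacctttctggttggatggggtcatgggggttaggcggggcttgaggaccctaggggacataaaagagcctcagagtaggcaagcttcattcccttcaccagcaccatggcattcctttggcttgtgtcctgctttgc
Pnliprp1 (chr19:58728637-58728936, plus strand): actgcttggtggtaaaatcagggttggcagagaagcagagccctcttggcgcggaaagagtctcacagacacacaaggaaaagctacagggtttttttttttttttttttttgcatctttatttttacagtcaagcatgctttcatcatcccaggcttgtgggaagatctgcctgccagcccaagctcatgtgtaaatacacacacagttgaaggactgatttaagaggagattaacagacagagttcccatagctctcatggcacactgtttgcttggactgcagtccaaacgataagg
Cela1 (chr15:100687871-100688170, minus strand): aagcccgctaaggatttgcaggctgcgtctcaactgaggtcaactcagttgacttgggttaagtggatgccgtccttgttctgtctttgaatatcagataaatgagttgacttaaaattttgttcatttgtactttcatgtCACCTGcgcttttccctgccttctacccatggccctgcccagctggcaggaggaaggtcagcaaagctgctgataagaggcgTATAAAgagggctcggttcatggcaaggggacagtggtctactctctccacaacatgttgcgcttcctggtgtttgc
In windows of this length CACCTG or its reverse complement stood in 5 of the 10 members, against 20.2% of 32851 promoters. TTTCCCA or its reverse complement stood in 5 of the 10, against 8.06% of promoters, and TATAAA in 5 of the 10, against 8.32%. The Ctrb1 window held TTTCCCA alone, the Cela1 window CACCTG and TATAAA, and the Pnliprp1 window none of these letters. These matches describe the sequences and are no evidence of binding.

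The 10 genes did not keep 1 proportion. They fell into 3 patterns by library: 8 of them had most counts in KAP1-deleted liver 2, Pnliprp1 had most in the tumours, and Cela1 was counted in all 6 libraries with most in tumour 2. In KAP1-deleted liver 2 all 10 had at least 3 counts, against 3 and 7 in tumours 1 and 2, 2 in KAP1-deleted liver 1, and 2 and 6 in control livers 1 and 2.

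**Figure D1:**
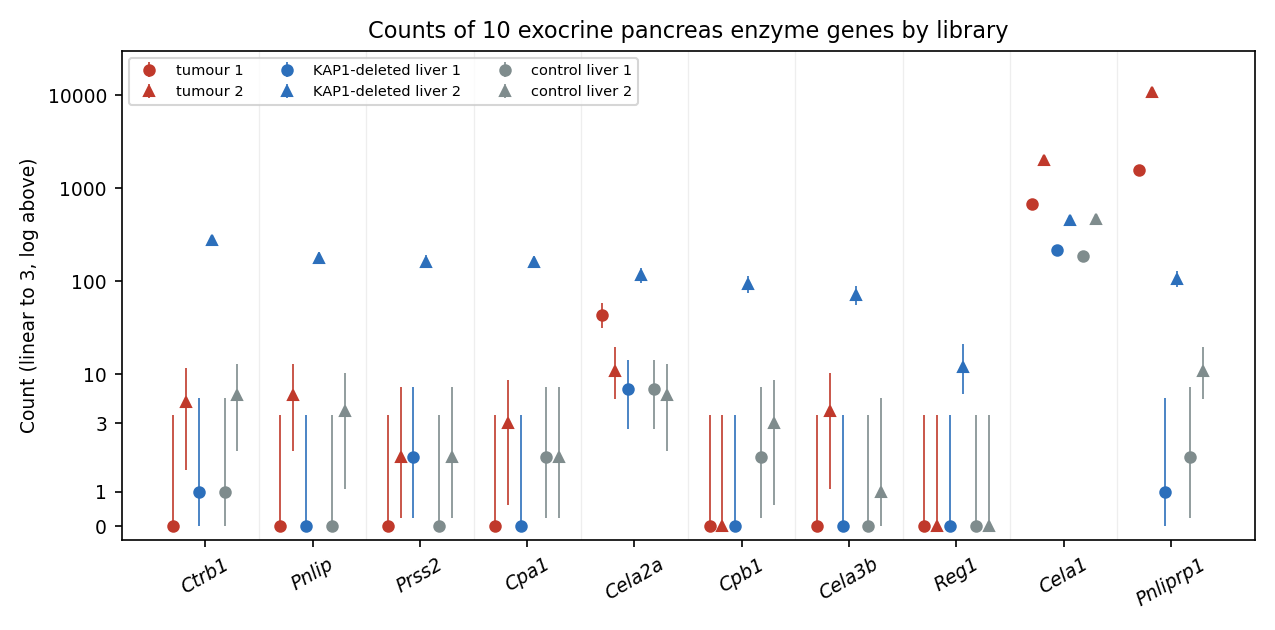
Counts of each of the 10 genes (horizontal axis) in each library, on a vertical axis that is linear to 3 and logarithmic above. Points are single libraries (circles replicate 1, triangles replicate 2) and bars their exact 95% Poisson intervals, which cover counting error only. KAP1-deleted liver 2 is highest, at 12 to 281 counts, for 8 genes, of which Cela2a also has 43 counts in tumour 1. The tumours lead for Pnliprp1, and Cela1 is counted everywhere.

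The chymotrypsin and trypsin precursors showed the first pattern most plainly. Ctrb1 (chymotrypsinogen B, ENSMUSG00000031957, chr8:111686519-111691010 in GRCm38) had 0 and 5 counts in tumours 1 and 2 and 1 and 281 in KAP1-deleted livers 1 and 2, against 1 and 6 in control livers 1 and 2. KAP1-deleted liver 2 alone stood high, and the group mean there was 2.99 ± 4.19 CPM (SD, n = 2), against 0.0653 ± 0.0516 CPM in control liver (SD, n = 2). Prss2 (a trypsinogen, ENSMUSG00000057163, chr6:41521787-41525079) had 0 and 2 counts in the tumours and 2 and 163 in the KAP1-deleted livers, against 0 and 2 in control livers. Again 1 library was high, and no other library had more than 2 counts. Of the 31-base words of Prss2, 77.4% occur in no other gene of the reference transcripts, so reads of related trypsinogens may be split between genes and its value is uncertain.

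The carboxypeptidases, which cleave amino acids from the C-terminus of peptides, followed. Cpa1 (ENSMUSG00000054446, chr6:30639218-30645363) had 0 and 3 counts in the tumours and 0 and 162 in the KAP1-deleted livers, against 2 and 2 in control livers. Cpb1 (ENSMUSG00000011463, chr3:20248264-20275733) had 0 and 0 counts in the tumours and 0 and 93 in the KAP1-deleted livers, against 2 and 3 in control livers. For both genes the groups overlapped, since KAP1-deleted liver 1 had no count.

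Among the elastases, Cela3b (ENSMUSG00000023433, chr4:137420999-137430540) had 0 and 4 counts in the tumours and 0 and 71 in the KAP1-deleted livers, against 0 and 1 in control livers. Of its 31-base words 73.9% are its own, so its value is uncertain. Cela2a (ENSMUSG00000058579, chr4:141814962-141826160) had 43 and 11 counts in the tumours and 7 and 116 in the KAP1-deleted livers, against 7 and 6 in control livers. It was thus highest in the same liver library, and tumour 1, where 7 members had no count at all, came next at 0.594 CPM. In the GENCODE M21 annotation Cela2a overlaps Ctrc on its own strand and Casp9, a caspase gene, on the opposite strand, and 83.4% of its words are its own, so its counts are uncertain.

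Reg1 (ENSMUSG00000059654, chr6:78422711-78428667) had 0 and 0 counts in the tumours and 0 and 12 in the KAP1-deleted livers, against 0 and 0 in control livers. In the 5 libraries without a count, the floor of 3 counts allows up to 0.0866 CPM, against 0.254 CPM in KAP1-deleted liver 2. Of the 6 relatives of Reg1 that were listed with it (Reg2, Reg3a, Reg3b, Reg3d, Reg3g and Reg4), none exceeded 5 counts in any library.

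The lipid-digesting pair parted. Pnlip (pancreatic triglyceride lipase, ENSMUSG00000046008, chr19:58652498-58681788) had 0 and 6 counts in the tumours and 0 and 178 in the KAP1-deleted livers, against 0 and 4 in control livers. Its neighbour Pnliprp1 (pancreatic lipase-related protein 1, a relative with little lipase activity of its own, ENSMUSG00000042179, chr19:58728887-58744169) had 1561 and 10757 counts in the tumours and 1 and 107 in the KAP1-deleted livers, against 2 and 11 in control livers. Both tumours stood above all 4 livers, at 21.6 and 204.7 CPM against at most 2.27 CPM. The tumours also differed from each other, tumour 2 being 9.50-fold above tumour 1 (95% counting interval 9.01 to 10.03).

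In the first mouse, tumour 1 had 949 times the Pnliprp1 level of KAP1-deleted liver 1, a ratio to 1 count with a 95% counting interval of 170.1 to 37510. In the second mouse the ratio of tumour 2 to KAP1-deleted liver 2 was 90.4 (95% counting interval 74.7 to 110.3), and that of Pnlip was 0.0303 (0.011 to 0.0673). The same liver and tumour thus differed in opposite directions for 2 genes of 1 family.

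Pnliprp2, which lies next to Pnliprp1 on chromosome 19 and was on the list of other pancreas genes, had 14 and 1129 counts in the tumours and 0 and 15 in the KAP1-deleted livers, against 0 and 0 in control livers. Its edgeR log2 fold change between tumour and KAP1-deleted liver was 6.03 ± 2.75 (adjusted p = 0.259). Of the other genes within 200 kb of Pnliprp1, Eno4 had 48 and 40 counts in the tumours and 25 and 20 in the KAP1-deleted livers, against 23 and 30 in control livers. Hspa12a had 231 and 54 counts in the tumours and 87 and 82 in the KAP1-deleted livers, against 68 and 117 in control livers. With a block for the mouse, on the 4 libraries of this comparison, 2 of the 3 tested genes of that list were called, 1 higher and 1 lower, in a fit that called 4476 of 17205 genes (26%).

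Cela1 (chymotrypsin-like elastase 1, ENSMUSG00000023031, chr15:100674421-100687921) was the member with counts everywhere, 669 and 1988 in the tumours and 217 and 456 in the KAP1-deleted livers, against 185 and 469 in control livers. These are 9.23 and 37.8 CPM in the tumours and 4.93 and 9.66 CPM in the KAP1-deleted livers, against 5.34 and 7.96 CPM in control livers. Tumour 1 lay within the range of the livers, so the groups overlapped, and tumour 2 alone stood above. The ratio of KAP1-deleted liver 2 to KAP1-deleted liver 1 was 1.96 (95% counting interval 1.66 to 2.31), below the values given next for the 8 genes of the first pattern.

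Those ratios give the size of the first pattern. KAP1-deleted liver 2 held 15.5 times the Cela2a level of KAP1-deleted liver 1 (95% counting interval 7.27 to 39.3), 76.03 times that of Prss2 (20.7 to 633) and 262 times that of Ctrb1 (46.7 to 10390). The last pair are ratios to 2 counts and 1 count. Where KAP1-deleted liver 1 had 0 counts, 3 counts in that library were taken as the floor. The ratio to this floor was 55.4 for Pnlip, 50.4 for Cpa1, 28.9 for Cpb1, 22.1 for Cela3b and 3.73 for Reg1. Lower 95% counting limits against the 0 counts were 44.55, 40.5, 23.1, 17.5 and 2.59 in the same order.

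Proportions were read as the share of each gene in the summed counts of the members in a library, with exact (Clopper-Pearson) 95% intervals. Pnliprp1 made up 68.7% and 84.2% of the sum in the tumours and 0.439% and 6.53% in the KAP1-deleted livers, against 1.01% and 2.18% in control livers. Cela1 made up 29.4% and 15.6% in the tumours and 95.2% and 27.8% in the KAP1-deleted livers, against 93.0% and 93.1% in control livers. In tumour 2 and KAP1-deleted liver 2, of the same mouse, the intervals of 0 of the 10 members overlapped. Between KAP1-deleted liver 1 and either control liver, and between the 2 control livers, those of all 10 did, at sums of only 199 to 504 counts.

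**Figure D2:**
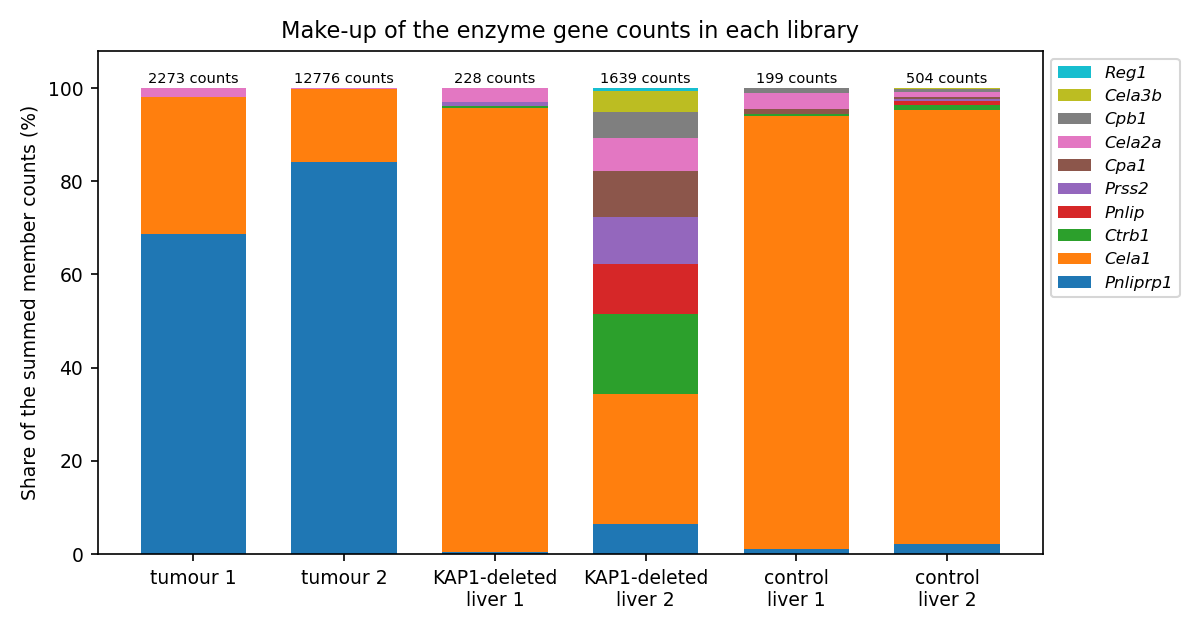
Share of each gene (colours) in the summed counts of the 10 genes, in percent (vertical axis), for each library (horizontal axis), with the sum printed above each bar. Pnliprp1 and Cela1 fill nearly all of 5 bars, and the bar of KAP1-deleted liver 2 is split among all members.

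Without Pnliprp1 and Cela1, a choice made after seeing the counts, the picture differed. The other 8 genes had 43 and 31 counts in all in the tumours and 10 and 1076 in the KAP1-deleted livers, against 12 and 24 in control livers. Their make-up in KAP1-deleted liver 2 was 26.1% Ctrb1 (95% interval 23.5% to 28.9%), 16.5% Pnlip, 15.1% Prss2, 15.06% Cpa1, 10.8% Cela2a, 8.64% Cpb1, 6.60% Cela3b and 1.12% Reg1. In control liver 2 the intervals of all 8 overlapped those of KAP1-deleted liver 2, as with Ctrb1 at 25.0% (9.77% to 46.7%). In tumour 2, in KAP1-deleted liver 1 and in control liver 1, 7 of the 8 overlapped, all but Cela2a. In tumour 1, where 43 of 43 counts were Cela2a, 3 overlapped. With 10 to 43 counts the intervals are wide, and departures from 1 proportion smaller than these were not detectable at this depth.

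Per kilobase of exon, the levels in KAP1-deleted liver 2 ran from 6.78 CPM per kb for Ctrb1, 4.24 for Prss2 and 4.19 for Cela1, through 1.96 for Cpa1, 1.72 for Pnlip, 1.43 for Cela2a and 1.02 for Pnliprp1, to 0.903 for Cela3b, 0.5998 for Cpb1 and 0.281 for Reg1. In tumour 2 the order was led by Pnliprp1 at 92.1 and Cela1 at 16.4 CPM per kb, and no other member exceeded 0.121.

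Other exocrine pancreas genes, a list written with earlier results of these data known, were then read in the same way. Of its 35 symbols 30 matched, and 25 had at least 1 count. Of the 14 with at least 20 counts in all, 11 were highest in KAP1-deleted liver 2, the library in which 11.4% of all 19384 genes with as many counts were highest. Cel (bile salt-activated lipase) had 1 and 3 counts in the tumours and 1 and 162 in the KAP1-deleted livers, against 0 and 3 in control livers. Amy2a5 (pancreatic amylase) had 0 and 7 counts in the tumours and 0 and 140 in the KAP1-deleted livers, against 2 and 1 in control livers, with 37.7% of its words its own. Try4 (a trypsin) had 0 and 2 counts in the tumours and 0 and 73 in the KAP1-deleted livers, against 0 and 0 in control livers, with 17.2% of its words its own. These genes, too, were high in 1 library.

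Spink1 and Ctrl were also highest in that library, but had counts in all 6. Spink1 (a trypsin inhibitor also made outside the pancreas) had 53 and 142 counts in the tumours and 130 and 176 in the KAP1-deleted livers, against 5 and 45 in control livers. Ctrl (chymotrypsin-like) had 23 and 16 counts in the tumours and 13 and 71 in the KAP1-deleted livers, against 10 and 15 in control livers. Ctrl thus stood at 1.504 CPM in KAP1-deleted liver 2 and at most 0.318 CPM elsewhere. The 3 of the 14 that were highest in another library were Pnliprp2 (tumour 2), Klk1 (KAP1-deleted liver 1) and Erp27 (control liver 2). Klk1 had 6 and 9 counts in the tumours and 8 and 8 in the KAP1-deleted livers, against 1 and 4 in control livers. Erp27 had 4 and 1 counts in the tumours and 2 and 3 in the KAP1-deleted livers, against 2 and 9 in control livers. Without Pnliprp2 and Spink1, left out after seeing the counts, the other 28 genes summed to 0.538 and 1.18 CPM in the tumours and 0.568 and 15.3 CPM in the KAP1-deleted livers, against 0.433 and 0.645 CPM in control livers.

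**Figure D3:**
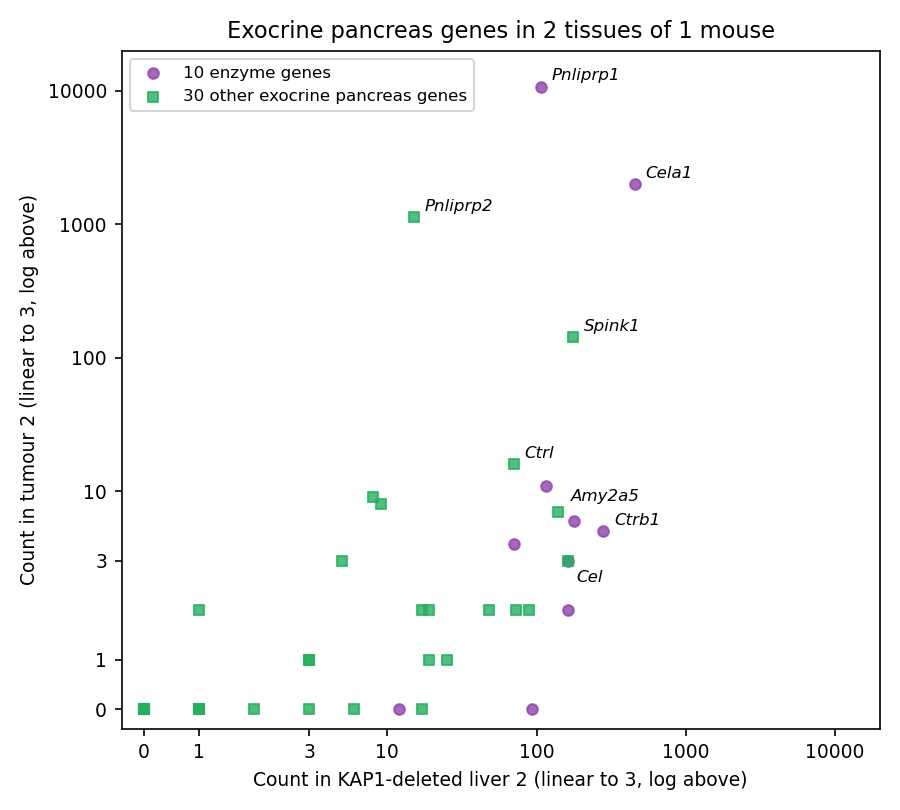
Counts in tumour 2 (vertical axis) against KAP1-deleted liver 2 (horizontal axis), both from 1 mouse, for the 10 genes (circles) and 30 other exocrine pancreas genes (squares). Both axes are linear to 3 and logarithmic above. The 8 genes of the first pattern lie low on the right, with at most 11 counts in tumour 2. Many of the other exocrine pancreas genes lie near 0 on both axes. Pnliprp1, Pnliprp2 and Cela1 lie above all others at 10757, 1129 and 1988 counts in tumour 2.

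No gene of that list was called by edgeR's quasi-likelihood test, which could reach only Spink1, Pnliprp2 and Ctrl, because the others failed the filter on low counts. Between tumour and KAP1-deleted liver 0 of 3 were called, where 11.4% of the 17558 genes tested were (4.8% higher and 6.64% lower). The count with an unadjusted p under 0.05 was 0, and DESeq2 and limma-voom called 0 and 0. Between tumour and control liver 0 of 3 were called, against 13.9% of genes (6.15% higher and 7.76% lower), with 0 at an unadjusted p under 0.05 and 0 called by DESeq2 and limma-voom. Between KAP1-deleted and control liver 0 of 3 were called, against 0.336% of genes (0.239% higher and 0.0968% lower), with 2 at an unadjusted p under 0.05, 1 called by DESeq2 and 0 by limma-voom. Spink1 there had a log2 fold change of 2.78 ± 0.82 (edgeR adjusted p = 0.537). Without a filter on low counts 25 genes of the list could be tested, and 13, 2 and 11 were called in these comparisons in turn, where 14%, 15.1% and 2.1% of 27238 genes were. Of the 13, 12 were lower in tumour, and all 11 were higher in KAP1-deleted liver. Without a filter, genes high in 1 library alone are tested, such as Cel with 1 and 162 counts in the KAP1-deleted livers. These calls are therefore not read as a difference between groups. Leaving out a library also changed the filter, so that 14 genes of the list were tested without tumour 1 or without KAP1-deleted liver 1. Such a fit leaves 1 library in a group, and genes high in any 1 library then pass the filter. Calls on this list from those fits are therefore not read.

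The same limit holds for the members: 3 of the 10 (Pnliprp1, Cela1 and Cela2a) passed the filter, which asks for counts in at least 2 libraries. Their fitted log2 fold changes between tumour and KAP1-deleted liver, given as a description, were 6.61 for Pnliprp1, 1.69 for Cela1 and -1.67 for Cela2a. They are given without an error, because the members were chosen with these values known. Without KAP1-deleted liver 2 they were 12.1 for Pnliprp1 and 1.34 for Cela2a, so that library set the sign for Cela2a. Without tumour 2 they were 4.21 for Pnliprp1 and 0.33 for Cela1, and without tumour 1 that of Cela2a was -2.64. Between tumour and control liver they were 9.67, 1.82 and 1.496 in the same order of genes. Without tumour 2 that of Cela1 was 0.46 and that of Pnliprp1 7.28, and without tumour 1 that of Cela2a was 0.53. Between KAP1-deleted and control liver they were 3.07, 0.13 and 3.17, and without KAP1-deleted liver 2 those of Pnliprp1 and Cela2a were -2.46 and 0.13. That of Cela1 ran from -0.44 without KAP1-deleted liver 2 to 0.54 without KAP1-deleted liver 1.

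Markers of other cells and tissues were counted in the same libraries. Of the acinar transcription factors, Ptf1a had 0 counts in all 6 libraries, and Rbpjl had 2 and 1 in the tumours and 0 and 1 in the KAP1-deleted livers, against 2 and 0 in control livers. Bhlha15, an acinar and plasma cell factor, had 5 and 50 counts in the tumours and 2 and 7 in the KAP1-deleted livers, against 4 and 3 in control livers. It was thus high in tumour 2 and not in KAP1-deleted liver 2. Nr5a2, which hepatocytes also express, had 4084 and 2576 counts in the tumours and 2091 and 2164 in the KAP1-deleted livers, against 1710 and 2793 in control livers.

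Most pancreatic islet markers were near 0, but G6pc2 and Slc30a8 were counted in every library. Ins1, Ins2, Iapp, Ppy and Pyy had 0 counts in every library, and the 13 genes summed to 1.27 and 1.43 CPM in the tumours and 1.59 and 1.10 CPM in the KAP1-deleted livers, against 1.88 and 0.526 CPM in control livers. Nearly all of this came from G6pc2 (89 and 62 counts in the tumours, 38 and 38 in the KAP1-deleted livers, 51 and 25 in control livers) and Slc30a8 (3 and 10, 32 and 11, 14 and 5). Duct markers, 8 genes shared by pancreas and bile ducts, summed to 5.25 and 23.9 CPM in the tumours and 30.97 and 37.81 CPM in the KAP1-deleted livers, against 18.8 and 34.8 CPM in control livers. Spp1 was the largest part in every library, at 29.4 of the 37.81 CPM in KAP1-deleted liver 2. The 13 intestine and stomach markers summed to 94.1 and 105.0 CPM in the tumours and 154 and 150.1 CPM in the KAP1-deleted livers, against 194 and 196 CPM in control livers, nearly all from Fabp2, which liver expresses too. The 6 fat markers summed to 62.4 and 47.9 CPM in the tumours and 86.02 and 109 CPM in the KAP1-deleted livers, against 18.5 and 59.8 CPM in control livers, with Adipoq at 4 counts or fewer. Most of the fat sum came from Cidec in every library, at 105 of the 109 CPM in KAP1-deleted liver 2. KAP1-deleted liver 2 did not stand apart from every other library by more than 1.5 times in any of these 4 lists.

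A list whose sum did move with the first pattern was that of B and plasma cells. Its 14 genes were written down after such genes had been seen to be high in KAP1-deleted liver 2. They summed to 16.0 and 12.1 CPM in the tumours and 21.1 and 119.6 CPM in the KAP1-deleted livers, against 16.2 and 11.8 CPM in control livers. Ighm (immunoglobulin mu) had 203 and 116 counts in the tumours and 165 and 2284 in the KAP1-deleted livers, against 85 and 228 in control livers. Ms4a1 (the B cell protein CD20) had 62 and 21 counts in the tumours and 25 and 185 in the KAP1-deleted livers, against 16 and 16 in control livers. The rise was not shared by all 14. Cr2 was lower in KAP1-deleted liver 2 (3.30 CPM) than in KAP1-deleted liver 1 (3.79 CPM) or control liver 1 (3.84 CPM). Blk changed little, from 0.64 CPM in KAP1-deleted liver 1 to 0.76 CPM in KAP1-deleted liver 2. Ighm, Igkc and Jchain made up most of the sum in KAP1-deleted liver 2, with 48.4, 23.1 and 32.3 of its 119.6 CPM. In that library 0 of the 14 were at 0, as in 4 of the other 5. Their part in the result was not tested.

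**Figure D4:**
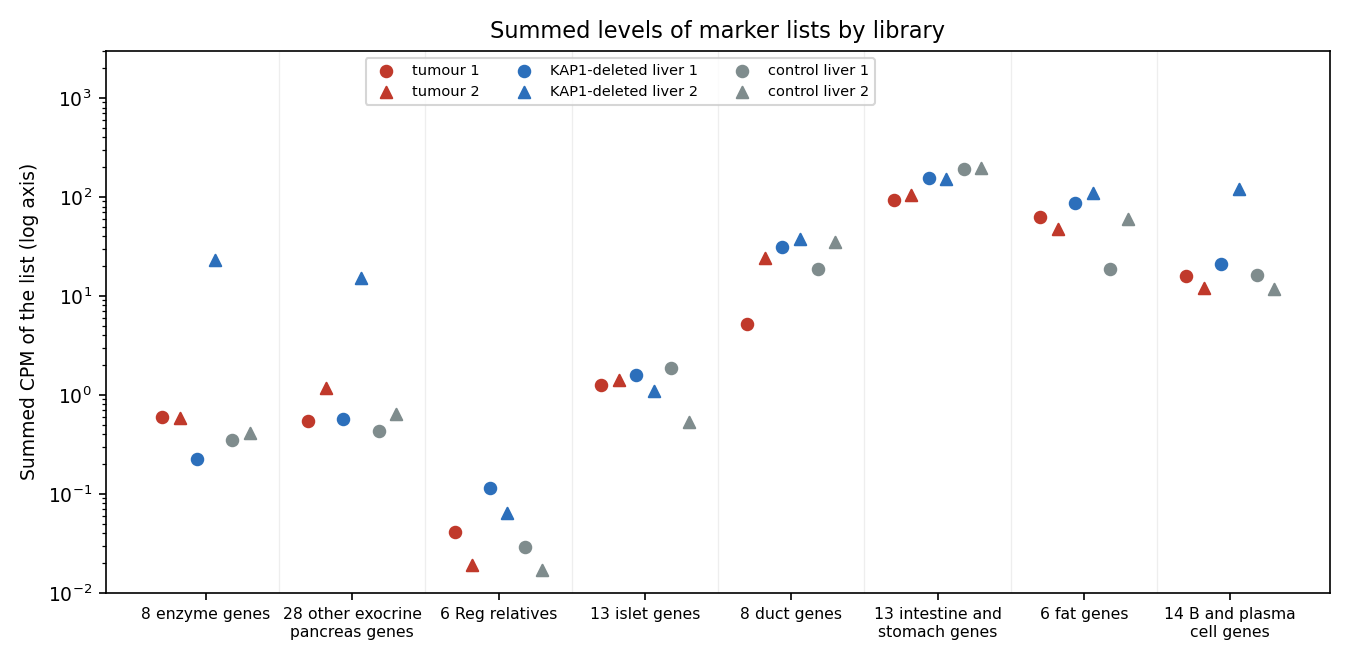
Summed CPM of 8 gene lists (horizontal axis) in each library, on a logarithmic vertical axis, with circles for replicate 1 and triangles for replicate 2. KAP1-deleted liver 2 stands apart for the 8 enzyme genes at 22.8 CPM, the 28 other exocrine genes at 15.3 CPM and the B and plasma cell genes at 119.6 CPM. It does not stand apart for the islet, duct, intestine or fat lists.

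The genes whose counts kept most nearly 1 ratio to the summed members over the 6 libraries were found by the SD of the log2 ratio, after adding 0.5 counts, among 19375 genes with at least 20 counts. They were Slit2 (SD 0.461), Ifng (0.468), Gzmk (0.528), Gm14744 (0.588), Cdh17 (0.612), Shc4 (0.712), Adam32 (0.731), Phgdh (0.739), Tent5b (0.803) and Cpe (0.836). None of the 10 is on the exocrine pancreas lists. All were highest in tumour 2, as Cpe with 48 and 606 counts in the tumours and 9 and 19 in the KAP1-deleted livers, against 4 and 26 in control livers. With Pnliprp1 and Cela1 out of the sum, 3 of the first 10 were exocrine pancreas genes, Clps (a lipase cofactor), Rnase1 and Cel, beside immunoglobulin genes such as Iglv1.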

How the data were processed

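The authors deposited raw read counts by Ensembl gene, 1 file for each of the 6 libraries. TopHat, HTSeq 0.6.1 and mm9 are named in the submitters' processing notes. Not given in the sources used here are the annotation, the strand setting and the TopHat version. The labels' protocols name a TruSeq stranded kit, and their extraction text names cell lines although all samples are labelled as tissue. Entries that name no gene, 20.9% to 36.7% of counted reads, were left out.

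The test across genes was edgeR 4.0.16 under R 4.3.3 (filterByExpr by group with minimum count 10 and minimum total 15, TMM, 1 mean per group over all 6 libraries, robust quasi-likelihood fit with 3 residual degrees of freedom, two-sided, Benjamini-Hochberg over 17558 genes, threshold 0.05). Fold changes of list genes are given ± an SE, taken as the absolute fold change over the square root of edgeR's F statistic. The code was tested on simulated data. DESeq2 1.42.0, limma-voom (limma 3.58.1), other scaling, no filter, fewer libraries and a mouse block were alternatives. With 2 libraries per group, p-values reflect how these samples vary, which may be technical.

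The mouse codes pair tumours with KAP1-deleted livers. Deviations of same-mouse libraries from their group means correlated with r = 0.185 across genes, which is 1 value because 2 libraries deviate equally.

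The members and lists were chosen with earlier results of these data known. Named genes are the 10 members, Trim28 and Alb, the 10 genes most proportional to the member sum, and list genes with most counts. The other genes named (the neighbours of Pnliprp2, Ctrl, Try4, Klk1, Erp27, Scn4b, Clps, Rnase1, Casp9, Ighm, Igkc, Jchain, Ms4a1, Blk, Cr2, Iglv1, Dmbt1, Car4, Gsdmc3, Gm10800 and list genes at or near 0) were chosen after their values were seen. Symbols came from GENCODE M21 (GRCm38) by identifier, matching 32919 of 37991 genes. Exon lengths and 31-base words came from its transcripts. The exact 95% intervals and the 3-count floors hold for counting error alone.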

Additional observations from a re-analysis of the deposited data

How the results depend on the processing

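Depth limits the 8 genes of the first pattern, which had 10 to 43 counts in all in each library other than KAP1-deleted liver 2. The summed level of the 10 members was 137 ± 150 CPM in tumour, 19.9 ± 20.9 CPM in KAP1-deleted liver and, in control liver, 7.15 ± 1.99 CPM (SD, n = 2 each). Leaving out each replicate gave 31.4 to 243 CPM in tumour, 5.18 to 34.7 CPM in KAP1-deleted liver and, in control liver, 5.74 to 8.55 CPM. In control liver it was 0.499 CPM without Reg1 and Cela1, and 0.377 CPM without Pnliprp1 and Cela1, where tumour had 0.592 CPM and KAP1-deleted liver 11.5 CPM. The sum without Pnliprp1 and Cela1 was chosen after seeing the data.

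Members with overlapping share intervals in tumour 2 and KAP1-deleted liver 2 numbered 0 of 10, and 7 of 8 without Pnliprp1 and Cela1. In KAP1-deleted liver 2 and control liver 2 they numbered 1 of 10, 7 of 8 without Reg1 and Cela1, and 8 of 8 without Pnliprp1 and Cela1. Exocrine pancreas genes among the 10 most proportional to the sum numbered 0, then 3 without Pnliprp1 and Cela1 and 1 without Reg1 and Cela1.

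Of other exocrine pancreas genes, edgeR called 0 in each comparison. With no filter on low counts it called 13 between tumour and KAP1-deleted liver (1 higher, 12 lower), 2 between tumour and control liver and 11 between KAP1-deleted and control liver. The fit without a filter tested 25 of them, including genes high in 1 library alone. Its calls are not read as a difference between groups. Leaving out a library kept 1 library in its group and let genes high in any 1 library pass the filter. Calls on this list from those fits are therefore not read. DESeq2 called 1 between KAP1-deleted and control liver. With the mouse as a replicate block, 2 were called between tumour and KAP1-deleted liver.

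Over all genes, 2007 were called between tumour and KAP1-deleted liver, 4837 with library totals (4317 higher, 520 lower, against 842 and 1165 with TMM), 3819 with no filter, 4476 with the mouse as a replicate block (1 residual degree of freedom), and 640 to 2715 leaving out a library. Between tumour and control liver 2443 were called, 4588 with library totals (3962 higher, 626 lower, against 1080 and 1363), 4115 with no filter, and 1103 to 2621 leaving out a library. Between KAP1-deleted and control liver 59 were called, 230 by DESeq2, 38 by limma-voom, 571 with no filter, 20 with only the 4 libraries compared, and 30 to 75 leaving out a library. The cause of these changes was not tested.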

Other observations

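When Reg1 and Cela1 were left out of the sum, so that Pnliprp1 dominated it in the tumours, the gene most nearly proportional to it was Pnliprp2 (SD of the log2 ratio 1.33 over 6 libraries). Scn4b (a sodium channel subunit) was next, with 306 and 234 counts in the tumours and 1 and 12 in the KAP1-deleted livers, against 2 and 3 in control livers. Car4 (a carbonic anhydrase) then followed with 32 and 775 counts in the tumours and 0 and 2 in the KAP1-deleted livers, against 0 and 1 in control livers. Gsdmc3 (a gasdermin) came after it with 104 and 529 counts in the tumours and 0 and 2 in the KAP1-deleted livers, against 0 and 0 in control livers. These values are a description.

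Dmbt1, a secreted scavenger receptor protein of several epithelia, tracked the 8 genes of the first pattern, with 0 and 2 counts in the tumours and 0 and 59 in the KAP1-deleted livers, against 0 and 1 in control livers. Vil1 (villin) had 20 and 148 counts in the tumours and 9 and 7 in the KAP1-deleted livers, against 14 and 2 in control livers. KAP1-deleted liver 2 also stood apart for Gm10800, with 447 and 530 counts in the tumours and 253 and 50708 in the KAP1-deleted livers, against 1328 and 11824 in control livers.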
